A study of Mus musculus with 9 samples.

Results

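Liver RNA of mice treated with AdipoRon or with its PEGylated analog AdipoRonPEG5 was examined for the response that both compounds share. The response was defined by a rule on the measured values: a gene was taken when its 6 values in the compound libraries all lay above, or all lay below, its 3 vehicle values in CPM (read counts scaled to library size, here by the trimmed mean of M values, TMM), with a mean over all 9 libraries of at least 1 CPM. Of 35275 entries in the table, 21500 had a count and 12046 reached that mean. The rule took 1757 of these (14.6%), 1008 above vehicle (8.37% of the 12046) and 749 below vehicle (6.22%). Scaling by total counts instead gave 1598 above and 276 below, so that 85.3% of the separated genes lay above vehicle in place of 57.4%. It kept all 1008 genes above and 276 of the 749 genes below. Between these scalings the median log2 fold change of the genes at 1 CPM moved up by 0.096 (AdipoRon) and 0.080 (AdipoRonPEG5), and every direction below is relative to TMM.

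The 3 groups were livers of C57BL/6 mice given PBS vehicle, AdipoRon or AdipoRonPEG5, with 3 libraries each. The labels name a dose of 5 mg/kg, given 2 times a day over 5 days, in a sentence that also covers PBS, and what each compound was dosed at is uncertain to that extent. Equal mass would not be an equal number of molecules for a compound and its PEGylated form. Age, sex, diet and metabolic state of the mice are not given in the labels, nor is it stated that the libraries of a group came from separate animals. The p-values below therefore measure the spread between these libraries, which may be technical. A further analog named in the treatment protocol, AdipoRonPEG6HTL, was not analysed here.

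AdipoRon is an orally active small molecule that binds AdipoR1 and AdipoR2, the membrane proteins through which adiponectin acts on AMP-activated protein kinase, on PPAR-alpha and on ceramide breakdown in liver and muscle. AdipoRonPEG5 carries a polyethylene glycol chain, a change commonly made to raise solubility or lengthen exposure. Liver holds hepatocytes beside Kupffer cells, its resident macrophages, and in bulk RNA fewer cells of a type and less RNA per cell cannot be told apart.

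Because the compound and vehicle values chose the genes, and both compounds are set against the same 3 vehicle libraries, differences from vehicle are given as a description, as log2 fold changes ± SE of an edgeR fit and without a test. The comparison that was tested is the 1 pair of compounds, AdipoRonPEG5 against AdipoRon, which the rule treats alike. The libraries held 13942322 to 18508950 counts, except vehicle 1 with 39473195, and 3 counts corresponded to 0.077 to 0.224 CPM. On log-CPM values the leading principal component (42.7% of the variance) placed vehicle at -28.2 to -21.8, AdipoRon between -5.38 and 2.92, and AdipoRonPEG5 at 24.4 to 28.8. Vehicle 3 and AdipoRonPEG5 1 stood apart in acute phase genes, with Saa1 at 4959 and 1952 CPM against 45.1 to 497 CPM elsewhere. Without these 2 libraries the rule separated 1718 genes above and 1594 below, among them 1001 and 743 of the original genes. Albumin (Alb), the defining hepatocyte transcript, lay between 44228 and 61022 CPM in all 9 libraries.

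The genes above vehicle were separated by larger distances than the genes below. Their median log2 fold change was 0.64 with AdipoRon and 0.70 with AdipoRonPEG5, and 267 of the 1008 were at least 1 log2 unit above vehicle with both compounds, 27 of them at least 2. Among the 749 genes below, the medians were -0.28 and -0.33, 13 were at least 1 log2 unit below with both compounds and none at least 2. Many separations were narrow: the gap between the nearest compound and vehicle values was under 1.1-fold for 452 genes above and 571 below, and over 2-fold for 60 above and 0 below. At the level limit, Adamdec1 (mean of 1.007 CPM) and Nol4l (1.009 CPM) fell just inside and Mterf1b (0.9997 CPM) and Cpxm1 (0.997 CPM) just outside, among 316 separated entries below 1 CPM. All 1757 genes passed the filter of the fit, which kept 13151 genes, so that none was left out of the comparison of compounds. A gene that passed a level minimum only through its compound libraries had to differ, which limits what the counts above can show.

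**Figure D1:**
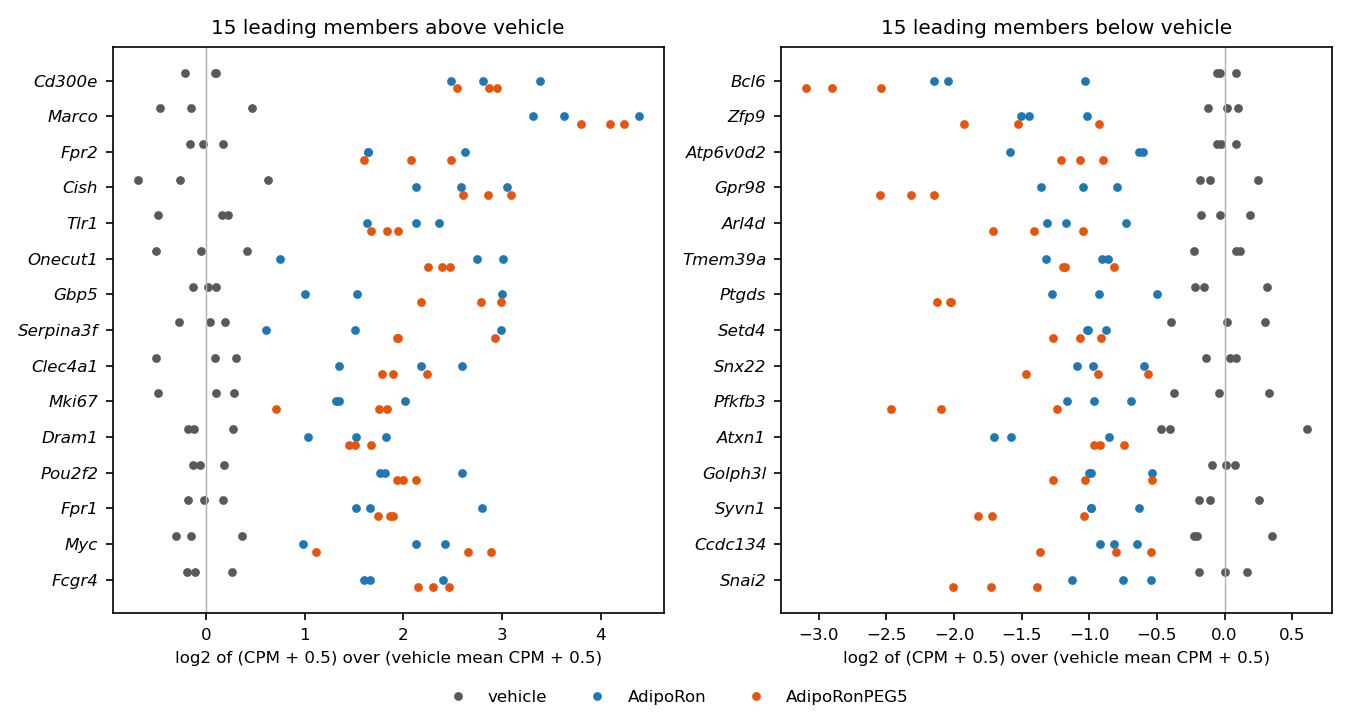
Level of the 15 leading genes above and the 15 below vehicle in each of 9 libraries, as the log2 ratio to the vehicle mean with 0.5 CPM added to both. Points are single libraries of vehicle (grey), AdipoRon (blue) and AdipoRonPEG5 (orange), and grey and coloured points do not overlap in any row because the rule chose the genes so.

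Macrophage genes lay above vehicle with both compounds. Of 22 listed macrophage and Kupffer cell genes, all at 1 CPM or more, 18 (81.8%) were above and 0 below, with a list median of 1.36 log2 units for AdipoRon and 1.65 for AdipoRonPEG5. Marco, a scavenger receptor of macrophages that binds bacteria and modified lipoproteins, was at 3.26, 2.54 and 5.28 CPM in vehicle 1 to 3, 87.2, 51.4 and 41.2 CPM in AdipoRon 1 to 3 and 58.0, 78.7 and 71.2 CPM in AdipoRonPEG5 1 to 3. The lowest compound library was far above the highest vehicle library, and the 2 compound groups overlapped. Its log2 fold change was 4.05 ± 0.31 with AdipoRon and 4.26 ± 0.31 with AdipoRonPEG5.

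Emr1, which encodes the macrophage marker F4/80, was at 4.73, 4.41 and 5.58 CPM in vehicle 1 to 3, 31.6, 20.3 and 14.2 CPM in AdipoRon 1 to 3 and 20.6, 23.2 and 26.7 CPM in AdipoRonPEG5 1 to 3 (log2 fold change 2.17 ± 0.26 with AdipoRon and 2.26 ± 0.25 with AdipoRonPEG5). The Kupffer cell markers Clec4f, Timd4, Vsig4 and Cd5l showed the same order of groups at smaller distances. Clec4f, a Kupffer cell lectin, had a mean of 63.4 ± 12.8 CPM in vehicle, 105 ± 31.6 in AdipoRon and 122 ± 7.0 in AdipoRonPEG5 (SD, n = 3). The log2 fold changes of the 2 compounds were 1.64 and 1.79 for Timd4, a receptor for phosphatidylserine on dying cells, 1.14 and 1.51 for Vsig4, a complement receptor, and 1.77 and 1.98 for Cd5l, a secreted macrophage protein. The 3 chains of complement C1q, which macrophages make, had similar log2 fold changes, in C1qa of 1.11 and 1.45, C1qb of 1.25 and 1.63 and C1qc of 1.37 and 1.65. Csf1r, the receptor for the growth factor on which macrophages depend, was at 16.1, 15.2 and 17.8 CPM in vehicle 1 to 3, 68.6, 39.8 and 37.7 CPM in AdipoRon 1 to 3 and 58.1, 52.9 and 71.8 CPM in AdipoRonPEG5 1 to 3.

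The 4 listed macrophage genes outside the rule were Mpeg1, Cd163, Nr1h3 and Slc40a1, each with at least 1 compound library among the vehicle values. The summed level of the list was 502 to 657 CPM in vehicle, 883 to 1362 CPM in AdipoRon and 1245 to 1318 CPM in AdipoRonPEG5. Between the compounds edgeR's quasi-likelihood test, with Benjamini-Hochberg adjustment over 13151 genes, called 0 of the 22, where it called 2.68% of all genes higher and 2.71% lower with AdipoRonPEG5. At an unadjusted p under 0.05 there were 5, DESeq2 called 1 and limma-voom 0. For Marco the difference of AdipoRonPEG5 from AdipoRon was 0.21 with a 95% confidence interval of -0.35 to 0.76, for Emr1 0.09 (-0.41 to 0.59) and for Cd5l 0.21 (-0.19 to 0.62). The count was 20 under total-count scaling, 18 with a gene length trend removed, and 20 without vehicle 3 and AdipoRonPEG5 1.

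Several receptors of myeloid cells were among the 15 leading genes above vehicle. Cd300e, an activating receptor of monocytes and macrophages, had the largest shared distance of the genes named here and was at 0.308, 0.149 and 0.298 CPM in vehicle 1 to 3, 7.34, 4.78 and 3.69 CPM in AdipoRon 1 to 3 and 5.31, 3.89 and 4.99 CPM in AdipoRonPEG5 1 to 3 (4.26 ± 0.36 with AdipoRon and 4.09 ± 0.36 with AdipoRonPEG5). Its vehicle values rest on 12, 2 and 4 counts. Fpr2, a receptor for formylated bacterial peptides, had 9 counts in all over the vehicle libraries, 3.46, 1.5 and 1.5 CPM in AdipoRon and 3.08, 1.45 and 2.22 CPM in AdipoRonPEG5, and its fold change (3.90 ± 0.56 with AdipoRon and 3.96 ± 0.56 with AdipoRonPEG5) is correspondingly imprecise.

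The paralog Fpr1 was at 0.977, 0.822 and 1.19 CPM in vehicle 1 to 3, 9.93, 3.78 and 4.24 CPM in AdipoRon 1 to 3 and 5.06, 4.93 and 4.50 CPM in AdipoRonPEG5 1 to 3 (2.58 ± 0.37 with AdipoRon and 2.28 ± 0.38 with AdipoRonPEG5). Tlr1, which pairs with TLR2 to recognise bacterial lipopeptides, was at 0.566, 0.149 and 0.521 CPM in vehicle 1 to 3, 4.20, 2.33 and 3.49 CPM in AdipoRon 1 to 3 and 3.02, 2.75 and 2.40 CPM in AdipoRonPEG5 1 to 3 (2.86 ± 0.36 with AdipoRon and 2.57 ± 0.36 with AdipoRonPEG5). AdipoRon 1 held the highest value of Cd300e, Fpr2, Fpr1 and Tlr1 among all libraries. Clec4a1, a C-type lectin of myeloid cells, had log2 fold changes of 2.60 ± 0.39 with AdipoRon and 2.44 ± 0.39 with AdipoRonPEG5, and Fcgr4, an activating receptor for IgG, 2.21 ± 0.26 with AdipoRon and 2.60 ± 0.25 with AdipoRonPEG5. Cd300e, Fpr2, Fpr1, Tlr1 and Clec4a1 had vehicle means of 0.252, 0.142, 0.996, 0.412 and 0.740 CPM. These genes reached 1 CPM only through their compound libraries, which limits what their place among the leading genes can show. Fcgr4, with a vehicle mean of 1.96 CPM, was above that minimum without the compounds. Between the compounds the intervals were -0.71 to 0.39 for Cd300e, -1.0 to 0.39 for Fpr1, -0.93 to 0.36 for Tlr1 and -0.09 to 0.87 for Fcgr4, and none was called. Formyl peptide receptors, C-type lectins and Fc receptors belong to families of near copies, and the sources used here do not say how reads shared by copies were counted.

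Markers of other blood cells were low. Of 12 neutrophil genes only Csf3r, the G-CSF receptor, reached 1 CPM (1.87 and 2.23), and S100a8, S100a9, Ly6g, Mpo and Elane stayed under it. The summed level of the 12 was 1.49 to 2.60 CPM in vehicle, 4.31 to 5.05 CPM in AdipoRon and 4.32 to 10.6 CPM in AdipoRonPEG5. Of 21 genes of T, NK and B lymphocytes 3 reached 1 CPM, 2 of them above vehicle: Ccl5, a chemokine (1.36 and 2.25), and Ighm, the IgM heavy chain (0.85 and 1.14). Csf3r and Ccl5, with vehicle means of 0.988 and 0.394 CPM, reached 1 CPM only through their compound libraries. The summed lymphocyte level was 5.84 to 7.59 CPM in vehicle, 10.1 to 16.1 CPM in AdipoRon and 13.2 to 17.0 CPM in AdipoRonPEG5. Endothelial genes were near the background share, with 1 of 15 above (Cdh5, 0.62 and 0.68), and stellate cell and matrix genes had 3 of 21 above (Vim, Tgfb1 and Des) and 1 below (Ctgf), with 7 above without vehicle 1 or vehicle 3. All 10 skeletal muscle genes and 11 of 12 pancreas genes were under 1 CPM. Of 10 adipose genes 5 reached 1 CPM, among them Car3, which hepatocytes also express, and the list summed to 1519.5 to 3582 CPM over the libraries. Lipe, hormone-sensitive lipase, was the 1 of these 5 (20%) above vehicle (0.49 and 0.51), with 2 above without vehicle 1 or AdipoRon 2, and the adipocyte genes Adipoq, Lep and Plin1 were under 1 CPM. The part of each cell type in the shared response was not tested.

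Several genes of recruited monocytes differed between the compounds. Of 10 such genes at 1 CPM or more, 4 (40%) were above vehicle, and 4 of the 13 tested were higher with AdipoRonPEG5 than with AdipoRon (Ccr2, Lgals3, Gpnmb and Cd63), where 2.68% of all genes were. Cd300e and Ccr2, with vehicle means of 0.252 and 0.929 CPM, reached 1 CPM only through their compound libraries, which limits the 40%. Ccr2, the chemokine receptor by which monocytes leave the blood, was at 0.848, 0.897 and 1.04 CPM in vehicle 1 to 3, 1.23, 1.56 and 1.09 CPM in AdipoRon 1 to 3 and 4.01, 3.37 and 3.51 CPM in AdipoRonPEG5 1 to 3. The AdipoRonPEG5 values lay above all others, whereas the AdipoRon values exceeded vehicle by little (0.51 ± 0.25 with AdipoRon and 1.98 ± 0.23 with AdipoRonPEG5), and the difference between the compounds was 1.47 ± 0.22 (edgeR adjusted p = 0.00573). Lgals3, which encodes galectin-3 of activated macrophages, was at 2.39, 1.49 and 2.08 CPM in vehicle, 7.90, 5.50 and 5.81 CPM in AdipoRon and 13.8, 14.2 and 11.7 CPM in AdipoRonPEG5, a difference between the compounds of 1.05 ± 0.18 (edgeR adjusted p = 0.0102). The summed level of the list was 39.7 to 59.7 CPM in vehicle, 58.5 to 71.5 CPM in AdipoRon and 75.0 to 91.1 CPM in AdipoRonPEG5.

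**Figure D2:**
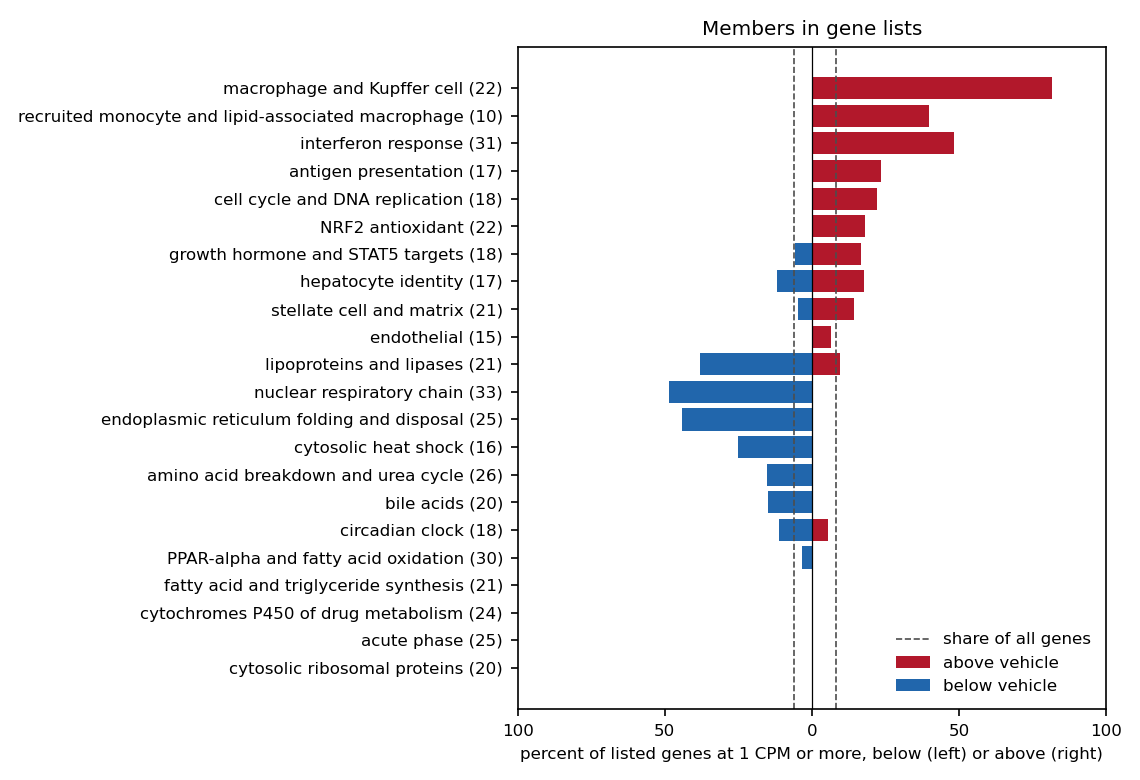
Share of each gene list, of the genes at 1 CPM or more (number in brackets), that lay above (right, red) or below vehicle (left, blue) in all 6 compound libraries. Dashed lines give the share of all genes, 8.37% above and 6.22% below. Macrophage and interferon genes extend to the right (18 of 22 and 15 of 31), endoplasmic reticulum and respiratory chain genes to the left (11 of 25 and 16 of 33).

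Interferon-responsive genes were above vehicle in part. Of 31 listed genes, 15 (48.4%) were above and 0 below, with list medians of 0.66 and 0.63. They included 5 guanylate-binding proteins (Gbp2, Gbp3, Gbp4, Gbp5 and Gbp6), GTPases that attack intracellular pathogens, 3 immunity-related GTPases (Iigp1, Igtp and Irgm1), Irf7 and the chemokines Cxcl9 and Cxcl10, whereas Ifit1, Ifit3, Isg15, Mx1 and Rsad2, typical targets of type I interferon, overlapped vehicle. Between the compounds edgeR called Irgm1 higher with AdipoRonPEG5, and Ifit3, Oas2, Mx2 and Rsad2 lower. Of the 31 genes DESeq2 called 4 higher and 5 lower, and limma-voom 0 and 4. Over all genes edgeR called 2.68% higher and 2.71% lower. Gbp5 was at 1.13, 1.05 and 0.893 CPM in vehicle 1 to 3, 11.7, 2.56 and 3.90 CPM in AdipoRon 1 to 3 and 10, 6.38 and 11.6 CPM in AdipoRonPEG5 1 to 3. AdipoRon 1 was well above AdipoRon 2 and 3, and without it the log2 fold change of AdipoRon was 1.60 instead of 2.52 (AdipoRonPEG5 3.14 ± 0.53). Serpina3f, a protease inhibitor from a cluster of near copies, behaved likewise, at 1.13, 0.673 and 0.967 CPM in vehicle 1 to 3, 10.8, 1.67 and 3.55 CPM in AdipoRon 1 to 3 and 5.00, 4.93 and 10.4 CPM in AdipoRonPEG5 1 to 3, with 1.40 instead of 2.45 for AdipoRon without AdipoRon 1.

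Cxcl9, a chemokine that draws T cells, was at 4.11, 5.75 and 4.02 CPM in vehicle 1 to 3, 17.2, 7.72 and 11.4 CPM in AdipoRon 1 to 3 and 25, 14.9 and 23.2 CPM in AdipoRonPEG5 1 to 3 (1.40 ± 0.30 with AdipoRon and 2.20 ± 0.29 with AdipoRonPEG5). The intervals between the compounds were -0.34 to 1.59 for Gbp5, -0.82 to 1.5 for Serpina3f, 0.20 to 1.40 for Cxcl9 (edgeR adjusted p = 0.117) and -0.75 to 0.57 for Cxcl10, with no call. Of 17 antigen presentation genes 4 (23.5%) were above vehicle: Ciita, Nlrc5, Tap1 and Tap2. The count was 7 without vehicle 1, 8 without vehicle 3 and 10 without AdipoRon 2. Ciita, with a vehicle mean of 0.577 CPM, reached 1 CPM only through its compound libraries. Between the compounds edgeR called 1 of the 17 higher with AdipoRonPEG5, where it called 2.68% of all genes higher. DESeq2 called 4 of the 17 higher and limma-voom 7. Nlrc5, the activator of class I genes, was at 24.5, 29.3 and 29.3 CPM in vehicle 1 to 3, 46.7, 46.2 and 44.4 CPM in AdipoRon 1 to 3 and 49.7, 39.3 and 46.0 CPM in AdipoRonPEG5 1 to 3, a clear gap from vehicle with no visible order of the compounds (0.73 ± 0.10 with AdipoRon and 0.70 ± 0.10 with AdipoRonPEG5, interval of their difference -0.25 to 0.19). Ciita, the activator of class II genes, was higher with AdipoRonPEG5 (4.75, 2.54 and 2.90 CPM) than with AdipoRon (1.85, 1.0 and 1.16 CPM, 0.463, 0.822 and 0.446 CPM in vehicle), with a difference of 1.34 ± 0.34 and an edgeR adjusted p of 0.0442 that was lost in 8 of 20 alternative settings (adjusted p from 0.0122 to 0.138).

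Cish and Bcl6, a pair of genes tied to STAT5, were at opposite ends of the shared response, and their promoters are shown for that reason, with that of Gbp5. The windows run from 250 bases before to 49 bases after the annotated start, 5′ to 3′ on the gene's strand, from RefSeq on GRCm38.p6. Capitals mark the pattern TTCNNNGAA, the core recognised by STAT proteins, which reads the same on both strands. Further annotated starts of Bcl6 are not shown, and the window of a further start held 3 matches, at -168, -122 and -88.

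Cish (chr9:107296409-107296708, plus strand): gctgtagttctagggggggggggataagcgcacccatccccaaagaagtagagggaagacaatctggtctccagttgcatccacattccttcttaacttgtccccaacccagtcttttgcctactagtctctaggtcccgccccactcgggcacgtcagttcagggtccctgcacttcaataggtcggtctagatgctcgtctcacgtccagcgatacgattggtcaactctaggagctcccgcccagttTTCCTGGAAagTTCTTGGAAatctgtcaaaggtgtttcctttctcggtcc

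Bcl6 (chr16:23988803-23989102, minus strand): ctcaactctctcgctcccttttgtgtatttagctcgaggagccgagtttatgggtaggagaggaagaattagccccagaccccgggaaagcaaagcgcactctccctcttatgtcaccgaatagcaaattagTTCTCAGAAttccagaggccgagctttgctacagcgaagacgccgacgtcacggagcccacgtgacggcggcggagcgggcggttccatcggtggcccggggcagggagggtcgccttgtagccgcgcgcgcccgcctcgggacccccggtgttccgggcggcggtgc

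Gbp5 (chr3:142496684-142496983, plus strand): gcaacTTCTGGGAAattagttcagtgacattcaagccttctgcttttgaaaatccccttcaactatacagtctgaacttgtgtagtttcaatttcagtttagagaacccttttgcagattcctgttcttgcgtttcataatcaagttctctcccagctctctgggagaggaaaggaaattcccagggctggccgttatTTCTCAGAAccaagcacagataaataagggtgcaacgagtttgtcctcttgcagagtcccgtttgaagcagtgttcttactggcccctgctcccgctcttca

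The pattern begins at positions 1 and 12 from the start in Cish, at -118 in Bcl6 and at -245 and -52 in Gbp5. It was present in 9.43% of 997 promoters of genes above vehicle, 8.67% of 727 of genes below, 7.06% of 11509 of all genes at 1 CPM and 8.30% of all promoters in the table, so that a match is a description of these windows and no sign of binding.

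Cish, an inhibitor of cytokine receptor signalling that STAT5 induces, was at 1.77, 3.74 and 1.19 CPM in vehicle 1 to 3, 15.9, 22.2 and 11.4 CPM in AdipoRon 1 to 3 and 16.1, 22.7 and 19.4 CPM in AdipoRonPEG5 1 to 3. Each compound library was above 11 CPM and each vehicle library under 4 CPM, and the compounds overlapped (2.95 ± 0.34 with AdipoRon and 3.18 ± 0.34 with AdipoRonPEG5, interval of their difference -0.39 to 0.85). Bcl6, a transcriptional repressor that STAT5 lowers in liver, was at 103, 105 and 113 CPM in vehicle 1 to 3, 52.1, 25.6 and 23.8 CPM in AdipoRon 1 to 3 and 18, 13.9 and 12.1 CPM in AdipoRonPEG5 1 to 3. The 3 groups did not overlap, with AdipoRonPEG5 lowest (-1.66 ± 0.25 with AdipoRon and -2.87 ± 0.27 with AdipoRonPEG5). The difference between the compounds was -1.21 ± 0.26 (edgeR adjusted p = 0.0264) and ranged from -1.41 to -0.76 over 20 settings, the call being lost without AdipoRonPEG5 2 or 3 (adjusted p up to 0.102).

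Onecut1 (HNF6), a hepatocyte transcription factor responsive to growth hormone, was at 3.83, 7.70 and 5.43 CPM in vehicle 1 to 3, 9.81, 49.2 and 40.8 CPM in AdipoRon 1 to 3 and 31.7, 28.7 and 33.7 CPM in AdipoRonPEG5 1 to 3. AdipoRon 1 lay close to vehicle 2 and the other compound libraries well above (2.63 ± 0.48 with AdipoRon and 2.54 ± 0.48 with AdipoRonPEG5, interval of the difference -1.02 to 0.84). Cyp4a12a, a male-predominant fatty acid hydroxylase, was at 73.0, 90.1 and 79.4 CPM in vehicle 1 to 3, 118, 156 and 124 CPM in AdipoRon 1 to 3 and 146, 192 and 234 CPM in AdipoRonPEG5 1 to 3 (0.72 ± 0.16 with AdipoRon and 1.24 ± 0.16 with AdipoRonPEG5). These were the members among 18 growth hormone and STAT5 targets, 3 above (16.7%) and 1 below (5.56%). The others overlapped vehicle, among them Socs2, Igf1, Ghr and Stat5b. Without vehicle 3 the counts were 5 above and 3 below, and without vehicle 1 there were 3 below. Near copies of Cyp4a12a exist, and its counts are uncertain to that extent.

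**Figure D3:**
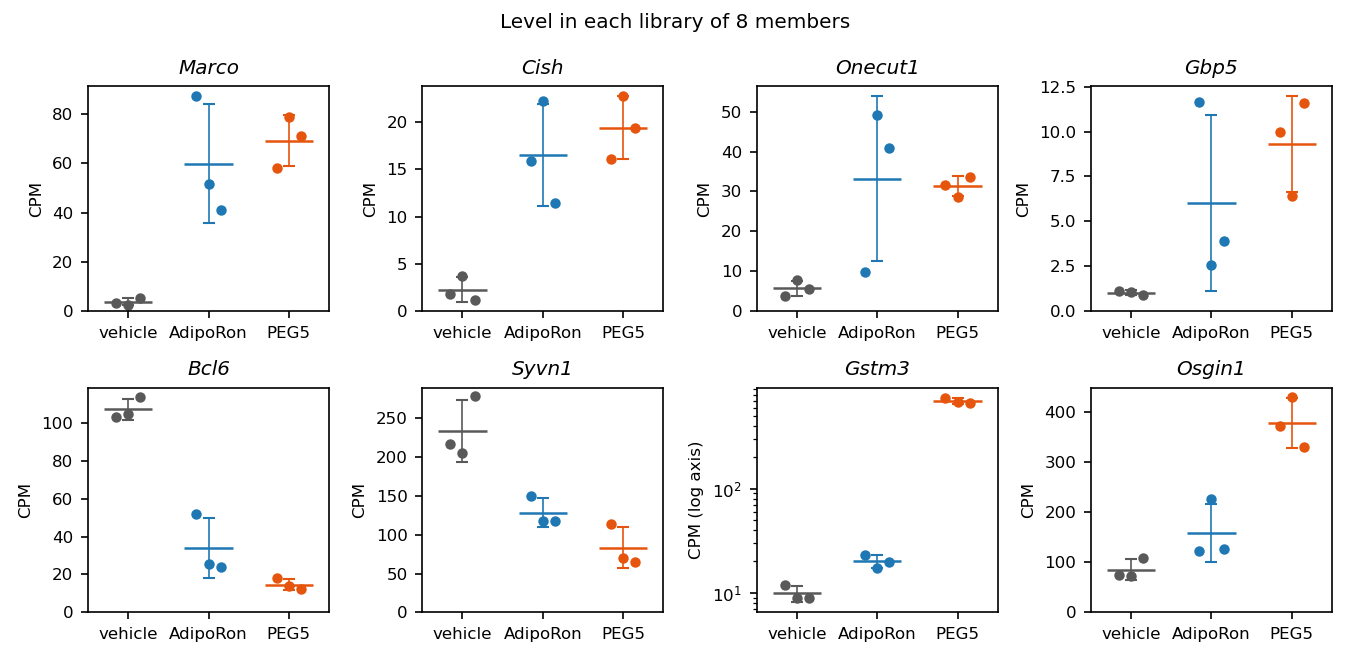
CPM in each library of 8 genes of the shared response, by group. Points are libraries, horizontal lines group means and bars 1 SD (n = 3). The axis of Gstm3 is logarithmic. Marco, Cish, Onecut1 and Gbp5 overlap between the compounds, Bcl6, Syvn1, Gstm3 and Osgin1 do not, and AdipoRon 1 of Onecut1 (9.81 CPM) lies nearest to vehicle.

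Other hepatocyte transcription factors were above vehicle beside abundant hepatocyte products that were not. Of 17 hepatocyte identity genes, Foxa2, Foxa1 and Cebpa were above and Serpina1b and Apoa1 below. Foxa2 was at 27.2, 23.2 and 28.3 CPM in vehicle 1 to 3, 45.4, 43.5 and 48.6 CPM in AdipoRon 1 to 3 and 47.0, 49.2 and 38.5 CPM in AdipoRonPEG5 1 to 3 (0.80 ± 0.11 with AdipoRon and 0.77 ± 0.11 with AdipoRonPEG5), and the compounds differed by -0.03 (interval -0.26 to 0.20). Hhex, a homeobox factor of liver development, was at 74.6, 55.5 and 37.5 CPM in vehicle 1 to 3, 89.2, 187 and 121 CPM in AdipoRon 1 to 3 and 117, 141 and 138 CPM in AdipoRonPEG5 1 to 3, with nearly equal fold changes (1.23 and 1.23). The summed level of the 17 genes was 102071 to 109214 CPM in vehicle, 88059 to 93424 CPM in AdipoRon and 92094 to 102043 CPM in AdipoRonPEG5.

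Myc, a transcription factor of cell growth, was at 1.70, 2.99 and 1.93 CPM in vehicle 1 to 3, 14.0, 11.3 and 4.85 CPM in AdipoRon 1 to 3 and 5.37, 16.6 and 19.6 CPM in AdipoRonPEG5 1 to 3, with AdipoRon 3 and AdipoRonPEG5 1 the lowest of the compound libraries (2.26 ± 0.51 with AdipoRon and 2.71 ± 0.51 with AdipoRonPEG5). Of 18 cell cycle genes 4 (22.2%) were above vehicle, all of low level: Mki67, Top2a, Cdk1 and Mcm4. Mki67, Top2a and Cdk1 had vehicle means of 0.524, 0.501 and 0.436 CPM and reached 1 CPM only through their compound libraries. The 22.2% can therefore not be set against the share of all genes. Mcm4, part of the replicative helicase, was close to vehicle (0.64 and 1.12). Mki67, the proliferation antigen Ki-67, was at 0.231, 0.598 and 0.744 CPM in vehicle 1 to 3, 3.64, 2.11 and 2.05 CPM in AdipoRon 1 to 3 and 1.17, 2.96 and 3.14 CPM in AdipoRonPEG5 1 to 3 (2.52 ± 0.51 with AdipoRon and 2.42 ± 0.51 with AdipoRonPEG5), and without vehicle 3 and AdipoRonPEG5 1 its AdipoRonPEG5 value was 3.13. At a minimum of 5 CPM none of the 4 was counted, and without vehicle 2 the list had 7 above. Pou2f2, a transcription factor of lymphoid and myeloid cells, had log2 fold changes of 2.46 ± 0.26 with AdipoRon and 2.37 ± 0.26 with AdipoRonPEG5, and Dram1, a lysosomal membrane protein, 2.39 ± 0.35 with AdipoRon and 2.45 ± 0.35 with AdipoRonPEG5.

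Antioxidant genes were above vehicle in 4 of 22 cases (18.2%, against 8.37% of all genes), among them Osgin1, which differed between the compounds. Hmox1, heme oxygenase, was at 7.92, 7.92 and 6.84 CPM in vehicle 1 to 3, 21.2, 15.6 and 14.4 CPM in AdipoRon 1 to 3 and 17.2, 17.4 and 30.2 CPM in AdipoRonPEG5 1 to 3 (1.17 ± 0.23 with AdipoRon and 1.5 ± 0.23 with AdipoRonPEG5, interval of the difference -0.14 to 0.81). Pgd and G6pdx, which supply NADPH in the pentose phosphate pathway, were above by 0.48 and 0.71 and by 0.45 and 0.82. Osgin1, an oxidative stress responsive gene, was at 74.4, 71.9 and 109 CPM in vehicle 1 to 3, 123, 225 and 127 CPM in AdipoRon 1 to 3 and 372, 431 and 330.5 CPM in AdipoRonPEG5 1 to 3, without overlap between any 2 groups. AdipoRonPEG5 exceeded AdipoRon by 1.25 ± 0.23 (edgeR adjusted p = 0.0148), a call lost in 3 of 20 settings with adjusted p up to 0.0629. Of the 22 genes tested between compounds, 8 were higher with AdipoRonPEG5 and 0 lower, where 2.68% of all genes were higher and 2.71% lower. Osgin1 alone of the 8 belongs to the shared response. Without AdipoRon 2 the count above vehicle was 7.

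Below vehicle, genes of protein folding and disposal in the endoplasmic reticulum formed the most populated secretory group. Of 25 listed genes 11 (44%) were below and 0 above: Hspa5, Hsp90b1, Dnajb9, Pdia4, Herpud1, Syvn1, Sel1l, Creld2, Manf, Hyou1 and Derl2. Syvn1, the ubiquitin ligase of the disposal complex, was at 217, 205 and 278 CPM in vehicle 1 to 3, 150.3, 118 and 117 CPM in AdipoRon 1 to 3 and 114, 70.4 and 65.5 CPM in AdipoRonPEG5 1 to 3, with AdipoRonPEG5 2 and 3 the lowest (-0.86 ± 0.20 with AdipoRon and -1.49 ± 0.20 with AdipoRonPEG5). Herpud1, which recruits substrates to that complex, was at 940.1, 1036 and 889 CPM in vehicle 1 to 3, 774, 463 and 609.9 CPM in AdipoRon 1 to 3 and 375, 322 and 386 CPM in AdipoRonPEG5 1 to 3 (-0.63 ± 0.16 with AdipoRon and -1.40 ± 0.16 with AdipoRonPEG5). Hspa5 (BiP), the main chaperone of this compartment, was at 1107, 1089 and 1557 CPM in vehicle 1 to 3, 1000.3, 912 and 975 CPM in AdipoRon 1 to 3 and 884, 504 and 616 CPM in AdipoRonPEG5 1 to 3, where AdipoRon 1 lay nearest to vehicle.

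The sensors and regulators of the unfolded protein response overlapped vehicle, with log2 fold changes of 0.12 and 0.09 for Xbp1, -0.21 and -0.30 for Ern1 and 0.14 and -0.14 for Atf6. Between the compounds edgeR called 1 of the 25 genes in each direction, where it called 2.68% of all genes higher and 2.71% lower with AdipoRonPEG5. DESeq2 called 2 of the 25 higher and 4 lower. Derl3, a disposal factor outside the shared response, was higher with AdipoRonPEG5 (1.71 ± 0.18, edgeR adjusted p = 0.000817), and Herpud1 was lower (-0.77 ± 0.16, edgeR adjusted p = 0.0228). Syvn1 (-0.63, interval -1.07 to -0.19, adjusted p = 0.0962), Dnajb9 (-0.07, -0.52 to 0.39) and Creld2 (-0.63, -1.26 to 0.00) were not called. The count below was 8 of 25 under total-count scaling, 13 with the length trend removed and 11 without vehicle 3 and AdipoRonPEG5 1. The summed level of the list was 7355 to 9943 CPM in vehicle, 6397 to 6922 CPM in AdipoRon and 5230.3 to 6521 CPM in AdipoRonPEG5.

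Of 16 heat shock genes 4 (25%) were below vehicle, the cytosolic chaperones and co-chaperones Bag3, Dnajb1 and Hspa8 and the mitochondrial co-chaperonin Hspe1. Under total-count scaling 2 were. Bag3, a co-chaperone of selective autophagy, was at 50, 46.6 and 37.2 CPM in vehicle 1 to 3, 29.7, 22 and 29.8 CPM in AdipoRon 1 to 3 and 23.6, 24.2 and 31.2 CPM in AdipoRonPEG5 1 to 3 (-0.72 ± 0.15 with AdipoRon and -0.77 ± 0.15 with AdipoRonPEG5). Hspa8, the constitutive HSC70, was at 1284, 1377 and 1513 CPM in vehicle 1 to 3, 1239, 1132 and 1173 CPM in AdipoRon 1 to 3 and 719, 597 and 747 CPM in AdipoRonPEG5 1 to 3. The AdipoRonPEG5 values lay well under the rest and the AdipoRon values only slightly under vehicle, with a difference of -0.78 ± 0.11 (edgeR adjusted p = 0.004). Ddit3 (CHOP), a stress-induced transcription factor, was at 16.6, 12.9 and 15 CPM in vehicle 1 to 3, 9.56, 8.28 and 9.36 CPM in AdipoRon 1 to 3 and 6.17, 6.18 and 6.60 CPM in AdipoRonPEG5 1 to 3 and differed by -0.52 ± 0.13 (edgeR adjusted p = 0.0437), a call lost in 10 of 20 settings.

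Nuclear genes of the respiratory chain lay below vehicle by small amounts. Of 33 genes 16 (48.5%) were below and 0 above, with list medians of -0.20 and -0.14. Cox6c, a subunit of cytochrome oxidase, was at 346, 333 and 332 CPM in vehicle 1 to 3, 255, 279 and 258 CPM in AdipoRon 1 to 3 and 278, 263 and 228 CPM in AdipoRonPEG5 1 to 3 (-0.35 ± 0.089 with AdipoRon and -0.40 ± 0.089 with AdipoRonPEG5), and Ndufb5 of complex I at 59.9, 66.2 and 61.2 CPM in vehicle 1 to 3, 47.2, 49.4 and 48.4 CPM in AdipoRon 1 to 3 and 56.0, 49.9 and 48.6 CPM in AdipoRonPEG5 1 to 3 (-0.37 ± 0.076 with AdipoRon and -0.28 ± 0.076 with AdipoRonPEG5). Between the compounds edgeR called 0 of the 33 (6 at an unadjusted p under 0.05, 1 by DESeq2, 1 by limma-voom), with intervals of -0.24 to 0.15 for Cox6c and -0.08 to 0.26 for Ndufb5. As edgeR called 2.68% of all genes higher and 2.71% lower, 0 calls in a list of this size is near the background. The count was 6 under total-count scaling and 7 with the length trend removed, was 25 without vehicle 3, and was 26 without vehicle 3 and AdipoRonPEG5 1. The mitochondrially encoded mt-Nd1 was above vehicle (0.33 ± 0.10 with AdipoRon and 0.53 ± 0.10 with AdipoRonPEG5), the 1 member among 12 mitochondrial transcripts. That count was 3 without vehicle 1, and 2 without AdipoRon 1, under total-count scaling, with vehicle 1 thinned or with the length trend removed.

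Lipoprotein genes lay on both sides of vehicle. Apolipoproteins Apoa1, Apoa2, Apoc1, Apoc3, Apoc4 and Apoe, with hepatic lipase (Lipc) and the HDL receptor Scarb1, were below vehicle, 8 of 21 genes (38.1%), whereas Lpl and Pltp were above (9.52%). Apoa1, the main protein of HDL, was at 11676, 13852 and 18145 CPM in vehicle 1 to 3, 11366, 11014 and 10196 CPM in AdipoRon 1 to 3 and 8579.6, 9163 and 10136 CPM in AdipoRonPEG5 1 to 3 (-0.42 ± 0.15 with AdipoRon and -0.65 ± 0.15 with AdipoRonPEG5). AdipoRon 1 lay only slightly under vehicle 1. Lpl, lipoprotein lipase, which is low in adult hepatocytes and made by macrophages, was at 7.35, 5.23 and 9.0 CPM in vehicle 1 to 3, 15.2, 23.8 and 11.0 CPM in AdipoRon 1 to 3 and 24.1, 22.8 and 18.2 CPM in AdipoRonPEG5 1 to 3 (1.21 ± 0.27 with AdipoRon and 1.59 ± 0.26 with AdipoRonPEG5), and Pltp, the phospholipid transfer protein, had 1.22 ± 0.24 with AdipoRon and 0.84 ± 0.24 with AdipoRonPEG5. The count below was 3 under total-count scaling and 3 with the length trend removed. Between the compounds edgeR called 0 of the 21 (5 at an unadjusted p under 0.05, 1 by DESeq2, 0 by limma-voom). That is near the background, as edgeR called 2.68% of all genes higher and 2.71% lower.

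The remaining leading genes below vehicle had varied roles. Zfp9, a zinc finger gene, was at 6.86, 8.07 and 7.59 CPM in vehicle 1 to 3, 3.46, 2.44 and 2.32 CPM in AdipoRon 1 to 3 and 3.70, 2.28 and 1.60 CPM in AdipoRonPEG5 1 to 3 (-1.44 ± 0.26 with AdipoRon and -1.56 ± 0.26 with AdipoRonPEG5). Arl4d, a small GTPase, was at 63.5, 81.8 and 70.1 CPM in vehicle 1 to 3, 31.7, 28.6 and 43.1 CPM in AdipoRon 1 to 3 and 21.6, 26.7 and 34.6 CPM in AdipoRonPEG5 1 to 3 (-1.06 ± 0.18 with AdipoRon and -1.37 ± 0.18 with AdipoRonPEG5), and Pfkfb3, which makes the glycolytic activator fructose-2,6-bisphosphate, at 67.1, 109 and 84.9 CPM in vehicle 1 to 3, 53.7, 44.4 and 38.7 CPM in AdipoRon 1 to 3 and 20, 15.4 and 36.7 CPM in AdipoRonPEG5 1 to 3 (-0.93 ± 0.27 with AdipoRon and -1.86 ± 0.28 with AdipoRonPEG5). Pfkfb3 differed between the compounds by -0.93 (interval -1.55 to -0.31) without a call (edgeR adjusted p = 0.0836). Setd4, a SET-domain methyltransferase, Snx22, a sorting nexin, and Tmem39a, Golph3l and Ccdc134 had log2 fold changes between -1.12 and -0.84 with either compound. Atp6v0d2, a subunit of the vacuolar proton pump, was low throughout (2.44, 2.39 and 2.68 CPM in vehicle, 1.48, 0.50 and 1.44 in AdipoRon, 0.802, 0.934 and 1.11 in AdipoRonPEG5). Atxn1 had -1.35 ± 0.30 with AdipoRon and -0.88 ± 0.29 with AdipoRonPEG5, with vehicle 3 at 46.4 CPM and vehicle 1 and 2 at 22.7 and 21.7 CPM.

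The clock genes Nr1d1 and Per1 were below vehicle and Arntl above, 3 members of 18. The shares were 11.1% below and 5.56% above, against 6.22% and 8.37% of all genes. Nr1d1, a repressor within the clock, was at 61.4, 63.0 and 73.9 CPM in vehicle 1 to 3, 50.3, 35.9 and 27.1 CPM in AdipoRon 1 to 3 and 31.0, 24.7 and 21.3 CPM in AdipoRonPEG5 1 to 3 (-0.80 ± 0.20 with AdipoRon and -1.36 ± 0.20 with AdipoRonPEG5). Per1 differed between the compounds by -0.62 ± 0.15 (edgeR adjusted p = 0.0429), a call lost in 9 of 20 settings. Among bile acid genes Abcb11, the bile salt export pump, Hsd3b7 and Baat were below (3 of 20, 15%), and among amino acid genes Fah, Haao, Bckdha and Arg1 (4 of 26, 15.4%). Under total-count scaling neither list had a gene below, and without vehicle 3 they had 7 and 10.

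The pathways that adiponectin receptors are known for held few members, where 8.37% of all genes were above vehicle and 6.22% below. The ceramidase list was at that background above vehicle (8.33%, with 0% below). The AMPK list was somewhat under it, at 5.26% in either direction. For PPAR-alpha the shares were 0% above and 3.33% below. The short list of receptors had 0% above and, through 1 gene, 14.3% below. Adipor1 (vehicle 96.7, 88.2 and 95.4 CPM, AdipoRon 103, 89.1 and 89.9 CPM, AdipoRonPEG5 93.2, 99.7 and 119 CPM) and Adipor2 (504, 465 and 530.4, 508, 472 and 505 and 383, 361 and 384 CPM) overlapped vehicle in at least 1 compound group. Adipor2 was lower with AdipoRonPEG5 than with AdipoRon (-0.40 ± 0.083, edgeR adjusted p = 0.0228), a call lost in 5 of 20 settings. Of 7 receptors and adaptors, only Stk11 (LKB1), the kinase upstream of AMPK, was below vehicle (-0.18 ± 0.065 with AdipoRon and -0.11 ± 0.065 with AdipoRonPEG5), and under total-count scaling it was not.

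Of 19 AMPK and PGC-1 genes, Ucp2, a mitochondrial carrier, was above (20.9, 16.9 and 26.9 CPM in vehicle, 49.0, 29.8 and 32.2 CPM in AdipoRon, 62.3, 59.2 and 78.3 CPM in AdipoRonPEG5), and Prkag1, an AMPK subunit, below (-0.41 and -0.21). The list had 3 above without vehicle 1 and 5 below without vehicle 3. Ucp2 was higher with AdipoRonPEG5 than with AdipoRon by 0.85 ± 0.20 (edgeR adjusted p = 0.0362, lost in 5 of 20 settings). Of 30 PPAR-alpha and fatty acid oxidation genes, only Angptl4, an inhibitor of lipoprotein lipase, was below vehicle (-0.47 ± 0.18 with AdipoRon and -0.82 ± 0.18 with AdipoRonPEG5). Of 24 ceramidase and sphingolipid genes, S1pr2, a receptor for sphingosine 1-phosphate and bile acids (0.60 and 0.84), and Asah2, the neutral ceramidase (0.25 and 0.47), were above, and 6 of the list were above without vehicle 3 or under total-count scaling. No member came from 21 fatty acid and triglyceride synthesis genes, 17 major urinary protein genes, 24 cytochromes P450 of drug metabolism, 25 acute phase genes or 20 cytosolic ribosomal protein genes. Without vehicle 3, however, 8 acute phase genes were above, and 10 of the cytochromes P450, 8 of the PPAR-alpha genes and 2 of the synthesis genes were below. Without AdipoRon 1 there were 3 synthesis genes below, without AdipoRon 2 there were 2 major urinary protein genes below, and without AdipoRon 3 there were 2 cytochromes P450 below. Leaving out single libraries gave at most 1 gene in a direction in the other cases of these lists, apart from 2 PPAR-alpha genes above without vehicle 1. Of the synthesis genes 13 of 23 tested were lower with AdipoRonPEG5 than with AdipoRon, where 2.71% of all genes were. Of the ribosomal protein genes 12 of 20 were higher, where 2.68% of all genes were.

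The compounds were compared directly at the dose and time the labels give for both. Over all 13151 genes AdipoRonPEG5 was higher than AdipoRon at 352 (2.68%) and lower at 357 (2.71%) by edgeR's test at an adjusted p of 0.05. Among the 1008 genes above vehicle 29 were higher with AdipoRonPEG5 (2.88%) and 3 lower (0.298%), and among the 749 below 0 were higher and 37 lower (4.94%). Thus 66 of the 69 called members lay further from vehicle with AdipoRonPEG5 and 3 further with AdipoRon. The share higher with AdipoRonPEG5 among genes above vehicle (2.88%) was near that of all genes (2.68%). The estimate itself, called or not, was higher with AdipoRonPEG5 for 63.8% of genes above vehicle and 33.6% below, against 48.1% of all genes tested.

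The 3 libraries of one compound lay wholly on one side of the other at 386 members. Above vehicle, AdipoRonPEG5 was wholly higher at 141 genes (14.0%, against 14.3% of all genes at 1 CPM) and wholly lower at 39 (3.87%, against 14.8%). Below vehicle, it was wholly higher at 48 (6.41%) and wholly lower at 158 (21.1%). Most members were not called between the compounds, 976 above and 712 below, of which 111 and 108 had an unadjusted p under 0.05. The 95% interval of the difference stayed within 1 log2 unit on either side of 0 for 889 of 1008 and 709 of 749 members, and within 0.5 log2 units for 439 and 569. These counts include called members. Such an interval bounds the size of a difference and does not show that there is none.

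**Figure D4:**
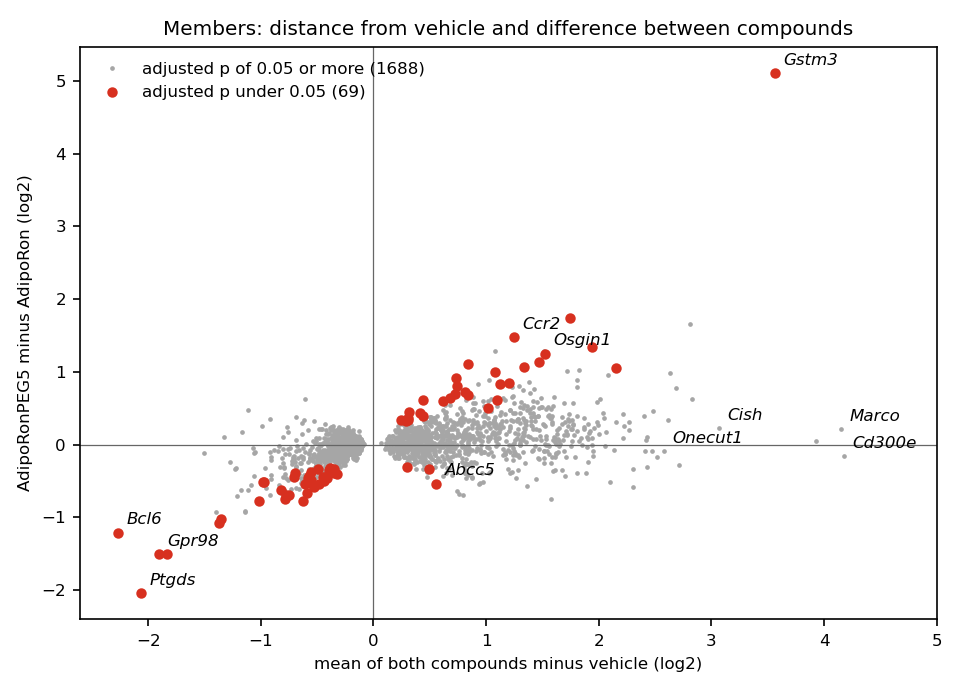
Difference between the compounds (AdipoRonPEG5 minus AdipoRon, log2, vertical) against their mean distance from vehicle (log2, horizontal) for 1757 members. Red points are the 69 members with an edgeR adjusted p under 0.05, grey points the others. Most red points lie at the upper right and lower left, where AdipoRonPEG5 is further from vehicle, and Gstm3 stands alone at 5.11.

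Gstm3, a mu-class glutathione transferase, had the largest difference. It was at 11.9, 8.89 and 8.85 CPM in vehicle 1 to 3, 23.3, 17.3 and 20 CPM in AdipoRon 1 to 3 and 747, 683 and 659 CPM in AdipoRonPEG5 1 to 3. AdipoRon lay moderately above vehicle and AdipoRonPEG5 far above both (1.01 ± 0.14 with AdipoRon and 6.12 ± 0.16 with AdipoRonPEG5), and the compounds differed by 5.11 ± 0.15 (interval 4.77 to 5.45, edgeR adjusted p = 1.75e-08). Reads shared with other mu-class copies could be split between them. Ces2c, a carboxylesterase, was at 18.9, 15.4 and 22.2 CPM in vehicle 1 to 3, 38.1, 33.2 and 34.8 CPM in AdipoRon 1 to 3 and 73.8, 74.0 and 84.5 CPM in AdipoRonPEG5 1 to 3, a difference of 1.13 ± 0.12 (edgeR adjusted p = 0.000654). Pck2, mitochondrial PEPCK, was at 4.73, 4.78 and 4.98 CPM in vehicle, 7.03, 5.39 and 5.26 CPM in AdipoRon and 12.3, 11.1 and 14.8 CPM in AdipoRonPEG5, and differed by 1.11 ± 0.15 (edgeR adjusted p = 0.00407). The rule counted it although AdipoRon exceeded vehicle by only 0.29 log2 units.

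On the side below vehicle, Ptgds, a prostaglandin D synthase, was at 2.67, 3.89 and 2.53 CPM in vehicle 1 to 3, 1.36, 2.0 and 0.957 CPM in AdipoRon 1 to 3 and 0.370, 0.363 and 0.308 CPM in AdipoRonPEG5 1 to 3, and differed by -2.04 ± 0.38 (edgeR adjusted p = 0.0149), a call lost without any 1 of the AdipoRonPEG5 libraries (adjusted p up to 0.0619). Gpr98, an adhesion receptor, was at 12.0, 9.27 and 8.78 CPM in vehicle 1 to 3, 5.55, 3.61 and 4.58 CPM in AdipoRon 1 to 3 and 1.60, 1.87 and 1.29 CPM in AdipoRonPEG5 1 to 3, with no overlap between any groups and a difference of -1.51 ± 0.23 (edgeR adjusted p = 0.00634). Snai2, a zinc finger repressor, differed by -1.02 ± 0.23 (edgeR adjusted p = 0.0296, lost in 5 of 20 settings), and Klf15, a regulator of gluconeogenesis and amino acid breakdown, by -0.69 ± 0.12 (edgeR adjusted p = 0.01).

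Further from vehicle with AdipoRon were Abcc5, an efflux transporter, Itpr1, a calcium channel of the endoplasmic reticulum, and Rufy3, an adaptor for lysosome transport. Abcc5 was at 6.02, 6.13 and 5.95 CPM in vehicle 1 to 3, 12.2, 9.83 and 10.1 CPM in AdipoRon 1 to 3 and 8.33, 7.32 and 6.47 CPM in AdipoRonPEG5 1 to 3, and differed by -0.54 ± 0.14 (edgeR adjusted p = 0.0456). The differences of Itpr1 (-0.33 ± 0.084, edgeR adjusted p = 0.048) and Rufy3 (-0.31 ± 0.071, edgeR adjusted p = 0.0318) were under 0.35 in size. These calls were lost in 13, 14 and 11 of 20 settings. Of 25 genes named by the selection rules and called between the compounds, 13 kept the call in every one of the 20 settings. Among these were Gstm3, Ces2c, Ccr2, Gpr98, Lgals3, Pck2, Hspa8 and Klf15. Calls of genes named outside those rules, such as Herpud1, Derl3, Irgm1 and Tsc22d3, were not followed over the settings.

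At the other end, 6 members at least 1 log2 unit from vehicle with both compounds had the smallest differences between them: Lrrc25, P2rx7, Csf2ra, Sh3kbp1, Hhex and Elf4. They were chosen for that likeness, which is therefore a description. Csf2ra, a receptor chain for GM-CSF, was at 5.22, 4.41 and 5.58 CPM in vehicle 1 to 3, 14.1, 11.4 and 9.84 CPM in AdipoRon 1 to 3 and 13.8, 11.4 and 10.1 CPM in AdipoRonPEG5 1 to 3, with an interval of the difference of -0.36 to 0.36. P2rx7, an ATP-gated channel of macrophages, was at 1.05, 1.72 and 1.56 CPM in vehicle 1 to 3, 3.52, 3.0 and 2.39 CPM in AdipoRon 1 to 3 and 2.96, 3.32 and 2.65 CPM in AdipoRonPEG5 1 to 3 (interval -0.51 to 0.52). For Sh3kbp1, an adaptor protein, the interval ran from -0.75 to 0.74, so that equal point estimates do not show equal action.

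Members are described here by length, which the rule did not use, and by level, which it used through its minimum of 1 CPM. The median gene length, recovered from the deposited FPKM, was 3766 bp above vehicle, 2193 bp below and 3080.0 bp for all genes at 1 CPM. Over 5 equal bins of genes, from the shortest to the longest, the share above vehicle went from 5.01% to 11.8% and the share below from 11.6% to 2.57%. With a length trend removed from each library the rule gave 937 genes above and 707 below, of which 856 and 539 were among the original genes. The median level was 8.13 CPM above, 32.3 CPM below and 17.3 CPM for all. Over 5 equal bins by level, from the lowest to the highest, the share above went from 13.2% to 2.45% and the share below from 2.07% to 10%. The part of length in the separation of single genes was not tested.

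**Figure D5:**
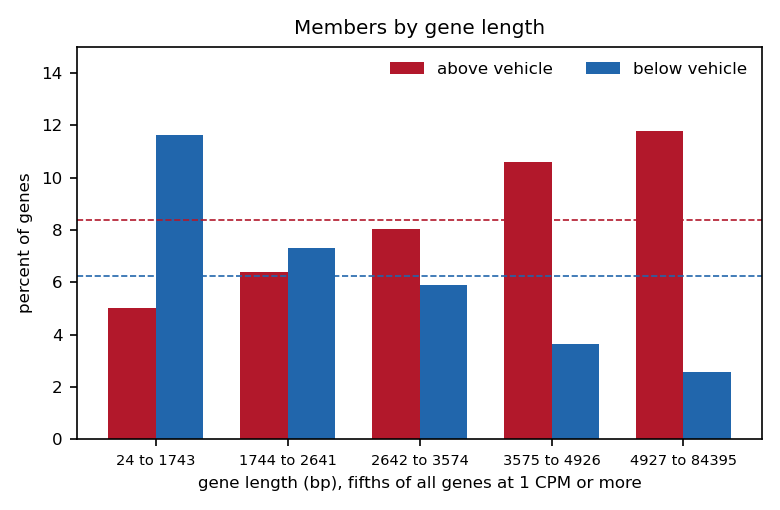
Percent of genes above (red) and below vehicle (blue) in all 6 compound libraries, in 5 equal bins of gene length in bp. Dashed lines give the shares of all genes. The share above climbs from 5.01% to 11.8% and the share below drops from 11.6% to 2.57%.

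Symbols of 961 of 1007 names above vehicle and 686 of 749 below matched RefSeq, of which 98.6% and 94.6% were protein-coding and 0.520% and 4.23% long noncoding RNA (2.46% of all matched genes). Promoter patterns searched on both strands were near the share of all genes at 1 CPM for the antioxidant element TGACNNNGC (14.5% above, 14.6% below, 14.4% of all). The AP-1 element TGANTCA, with which it can overlap, was in 6.62% of promoters above, 6.88% below and 5.34% of all. The E-box CACGTG was in 7.22% of promoters above, 11.1% below and 9.91% of all, and the cyclic AMP element TGACGTCA in 1.40%, 2.34% and 2.94%. These are counts of letters in 300 bases around the start and are no test of a factor.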

How the data were processed

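Total RNA of 9 mouse liver libraries was sequenced by the study. The authors deposited raw read counts per gene in 1 table with FPKM beside them; the FPKM were used only to recover gene lengths. The submitters' processing notes name TopHat, STAR 2.5, edgeR, DESeq2 and HTSeq 0.6.1, with no role for any. The sources used here do not state the genome build, annotation, strand setting or handling of multi-mapping reads. Columns were matched to samples by the labels' descriptions.

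CPM were computed here with TMM factors. All 9 libraries entered 1 edgeR 4.0.16 quasi-likelihood fit in R 4.3.3 (filterByExpr, 3 group means, robust set to FALSE), with Benjamini-Hochberg adjustment over 13151 genes at 0.05. The fit was tested on simulated data. Alternatives were RLE and total-count scaling, other level minimums, vehicle 1 thinned to 15793369 reads, DESeq2 1.42.0, limma-voom (limma 3.58.1), the 6 compound libraries alone, a replicate block, each library left out, and, added after seeing the data, removal of a length trend.

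Members, gene lists and tests were chosen with earlier results of these data known. Named genes were the 15 members each above and below vehicle with the largest shared distance (the smaller of both fold changes), up to 4 members of each list, the 8 called members with the largest difference in each direction, the 6 most alike, 2 genes on either side of the level limit, and Adipor1 and Adipor2. Other genes were chosen after their values were seen, among them Alb, Saa1, Herpud1, Hspa5, Csf1r, Xbp1, Derl3 and members named only as part of a list. Unnamed models, pseudogenes, dates and duplicated names (105 members) were counted and not named. The values of 1 listed gene are not reported here. No 2 libraries of a group agreed within sampling noise (chi-square per degree of freedom 10.5 to 148).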

Additional observations from a re-analysis of the deposited data

How the results depend on the processing

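Counts of genes separated from vehicle moved most with scaling and with vehicle libraries left out. By its form the rule is eased more by leaving out 1 of 3 vehicle libraries than 1 of 6 compound libraries. Above vehicle, 1008 genes became 1598 under total-count scaling, 1718 without vehicle 3 and AdipoRonPEG5 1, and 636 at a mean of 5 CPM, with 1062 to 1516 when 1 library was left out (fewer libraries make separation easier). Below vehicle, 749 became 276, 1594 and, with 1 library left out, 822 to 1422. Genes without overlap between the compounds (386) became 1103 without those 2 libraries and 519 to 794 with 1 left out. Calls between the compounds over all genes ran from 135 to 551 higher and from 98 to 481 lower with 1 library left out. Members further from vehicle with AdipoRonPEG5 (66) were 134 without vehicle 3 and AdipoRonPEG5 1 and 24 to 173 with 1 left out. Members further with AdipoRon (3) were 5 under total-count scaling, 0 with the length trend removed, 5 with DESeq2, 1 without a filter and 0 to 9 with 1 left out. The causes were not tested. No gene named by the selection rules changed sign with a call, and genes named outside them were not followed.

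Replicate numbers did not pair the libraries (correlations of same-numbered deviations -0.33 to 0.096). With the number as a replicate block, 190 genes were higher and 148 lower with AdipoRonPEG5, and 34 and 0 members lay further from vehicle with AdipoRonPEG5 and AdipoRon. Depth limits members under about 5 CPM, where vehicle values rest on few counts.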

Other observations

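Families of related genes, chosen after their values were seen and given without a test, held members in unequal shares, where 8.37% of all genes were above vehicle and 6.22% below. Of 8 Toll-like receptors at 1 CPM or more, 7 lay above vehicle, among them Tlr2 (1.73 and 1.65 with AdipoRon and AdipoRonPEG5), Tlr4 (0.91 and 1.03) and Tlr13 (1.13 and 1.60). Of 9 guanylate-binding proteins 8 were above, of 5 Fc gamma receptors and their signalling chain 4, of 5 CD300 genes 4, and of 15 C-type lectins 6. Tlr1, Cd300e and Clec4a1, with vehicle means of 0.412, 0.252 and 0.740 CPM, reached 1 CPM only through their compound libraries. This limits the shares of the Toll-like receptors, CD300 genes and C-type lectins. Itgb2 (1.75 and 1.99) and Itgal (1.65 and 1.78), the chains of a leukocyte integrin, were among 5 of 21 integrins above vehicle. Other families had few members: 1 of 6 GIMAP GTPases, 1 of 13 kinesins and 0 of 19 SLC35 carriers were above with none below. Of 33 SEC and SSR secretory genes 2 were above and 1 below, of 267 zinc finger Zfp genes 13 and 13, and of 20 JAK-STAT feedback genes 3 and 1. Of 76 mitochondrial ribosomal protein genes 11 were below vehicle and 0 above, with family medians of -0.18 and -0.06.

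Of 24 liver transcription factors 6 were above vehicle (Onecut1, Hhex, Foxa1, Foxa2, Gata4 and Cebpa) and 1 below, Cebpb, an acute phase regulator, at 179, 233 and 211 CPM in vehicle, 165, 142 and 177 CPM in AdipoRon and 101, 133 and 152 CPM in AdipoRonPEG5. Of 16 genes known to respond to glucocorticoids 5 were below (Tsc22d3, Klf15, Per1, Angptl4 and Sgk1) and 1 above (Klf9, 0.81 and 0.49). Tsc22d3, which encodes the protein GILZ, was at 235, 315 and 269.8 CPM in vehicle 1 to 3, 161, 122 and 176 CPM in AdipoRon 1 to 3 and 53.5, 66.4 and 98.1 CPM in AdipoRonPEG5 1 to 3. It had log2 fold changes of -0.84 ± 0.21 with AdipoRon and -1.91 ± 0.21 with AdipoRonPEG5 and differed between the compounds by -1.07 ± 0.21 (edgeR adjusted p = 0.0175).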
